A study of Mus musculus with 26 samples.

Results

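RNA sequencing of mouse bone marrow progenitors and cultured mast cells was used to describe 10 glutathione S-transferase genes, Gstm1, Gstm2, Gstm5, Gstp1, Gsta4, Gsto1, Gstt1, Mgst1, Mgst2 and Mgst3. They were taken by symbol from the 52636 genes in the deposited tables. The family was picked because Gstm1 is far higher in granulocyte-macrophage progenitors (GMPs) than in common myeloid progenitors (CMPs). The levels that compare GMPs with CMPs are therefore a description, with no test for any member.

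The 26 libraries fell into 6 groups, namely 4 libraries per genotype (wild-type or Prss57-/-) for GMPs and for CMPs, and 5 per genotype for bone marrow-derived mast cells (BMMCs). Prss57 encodes NSP4, a serine protease of neutrophils and their progenitors. The Prss57-/- mice carried a germline deletion of exon 2 made in C57BL/6N embryonic stem cells, and their wild-type controls were age-matched littermates; the age of the mice behind the RNA libraries was not given in the sources used here. GMPs and CMPs were sorted from the bone marrow of females as lineage-negative, SCA-1-, CD117+, CD34+ cells, GMPs with high and CMPs with low CD16/32. BMMCs came from males and were grown from sorted GMPs in IL-3 and SCF, so their last state is that of a culture. The BMMC libraries were also sequenced in another run than the progenitors, so BMMCs and GMPs differ at once in cell type, sex and run, which cannot be told apart. The study calls its replicates biological, but the labels do not say whether each library came from its own mouse, so the p-values measure the spread between these libraries.

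The libraries held 18627626 to 53264762 counted reads. Prss57 was at 18064 to 26556 reads in wild-type GMPs and at 6 to 25 in Prss57-/- GMPs, and at 2261 to 3926 in wild-type and 1 in each Prss57-/- CMP library. BMMCs had next to none, 2 to 27 reads in wild-type mice and 0 otherwise. The summed normalized RPKM of the markers went with the sort labels. That of 10 GMP markers, among them Mpo and Elane, was 27154 to 40509 in GMPs and at most 10408 in CMPs. That of 10 mast cell markers, among them Cpa3 and Tpsb2, was 25530 to 76796 in BMMCs and at most 706 in GMPs. Single markers could go another way. In wild-type mice Cd34 and Kit of the GMP list had means of 260 and 52.4 in GMPs and 321 and 57.4 in CMPs. Hdc of the mast cell list was at 158 in wild-type GMPs and 151 in wild-type BMMCs. The sum of 10 megakaryocyte and erythroid markers was 1761 to 3877 in CMPs, 103 to 190 in GMPs and 1259 to 1952 in BMMCs. A set of 10 macrophage and dendritic cell markers was also present in BMMCs, each above 3 reads in at least 1 library of each genotype. Their summed level was 2314 to 3918 in all BMMC libraries but Prss57-/- library 3, which stood at 246. That library also had the highest mast cell sum, and values without it are given beside the results for BMMCs over GMPs. In bulk RNA, fewer cells of a type and less RNA per cell cannot be told apart.

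Glutathione S-transferases join the tripeptide glutathione to electrophilic compounds, which makes them soluble and marks them for export. The soluble enzymes are dimers grouped in classes by Greek letters, of which mu (Gstm), pi (Gstp), alpha (Gsta), omega (Gsto) and theta (Gstt) are among the members. The microsomal enzymes (Mgst) belong to an unrelated membrane family that also holds leukotriene C4 synthase, which mast cells use to make leukotrienes.

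The level of a gene is given as normalized RPKM, which is reads per gene divided by a constant for its length and by a size factor of the library, so that levels can be compared between genes. A member's share is its percentage of the summed level of all 10 members in a library. That sum was 928 ± 151 normalized RPKM (SD, n = 4) in wild-type GMPs, 645 ± 98.7 (SD, n = 4) in wild-type CMPs and 282 ± 24.7 (SD, n = 5) in wild-type BMMCs. Gsto1 held the largest mean share in each of the 6 groups. Gstm1 followed in wild-type GMPs with 34.1% ± 4.44 (SD, n = 4), while Gstm5 followed in wild-type CMPs with 18.0% ± 2.64 (SD, n = 4). In wild-type BMMCs the next shares were 19.4% ± 2.48 (SD, n = 5) for Gstm1 and 15.2% ± 1.503 (SD, n = 5) for Mgst1.

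**Figure D1:**
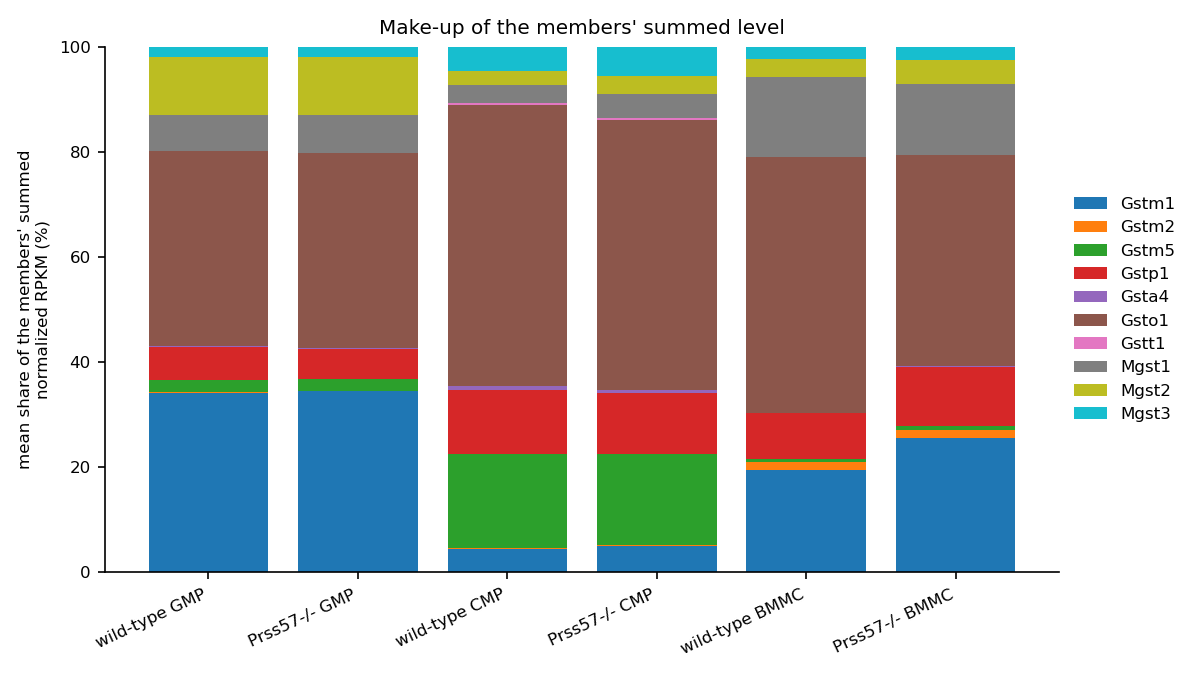
Mean share of each member in the summed normalized RPKM of the 10 members, in percent, for the 6 groups (4 libraries each of GMPs and CMPs, 5 each of BMMCs). Gstm1 took 34.1% in wild-type GMPs and 4.33% in wild-type CMPs, and Gstm5 took 2.41% and 18.0%.

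Gstm1, Gstm2 and Gstm5 lie in a cluster of 7 mu class genes that spans 149 kb of chromosome 3 (GRCm38, GENCODE M21 gene models). Gstm1 (ENSMUSG00000058135) is at chr3:108012255-108017973 on the reverse strand, Gstm2 (ENSMUSG00000040562) at chr3:107981702-107986453 on the reverse strand and Gstm5 (ENSMUSG00000004032) at chr3:107895821-107898686 on the forward strand. Because Gstm1 and Gstm5 share this cluster, at either side of 4 other mu class genes, and ran opposite ways between GMPs and CMPs, the RefSeq promoters of both are shown, together with that of Mgst1, a membrane member that was also higher in GMPs. Each has 250 bases before and 50 after an annotated start (GRCm38.p6), written 5′ to 3′ on the strand of the gene.

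Gstm1, chr3:108017924-108018223, reverse strand: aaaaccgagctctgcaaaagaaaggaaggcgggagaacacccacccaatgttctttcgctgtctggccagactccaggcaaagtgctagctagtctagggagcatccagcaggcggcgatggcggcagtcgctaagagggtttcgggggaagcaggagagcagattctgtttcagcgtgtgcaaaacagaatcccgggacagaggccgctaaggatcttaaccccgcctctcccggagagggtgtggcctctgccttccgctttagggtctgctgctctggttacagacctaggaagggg
Gstm5, chr3:107895604-107895903, forward strand: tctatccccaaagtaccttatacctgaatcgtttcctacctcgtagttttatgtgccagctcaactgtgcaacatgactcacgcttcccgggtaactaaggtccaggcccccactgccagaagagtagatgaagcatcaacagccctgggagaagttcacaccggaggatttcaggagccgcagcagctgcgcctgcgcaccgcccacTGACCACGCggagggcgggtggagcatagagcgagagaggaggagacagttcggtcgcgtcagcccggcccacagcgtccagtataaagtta
Mgst1, chr6:138140277-138140576, forward strand: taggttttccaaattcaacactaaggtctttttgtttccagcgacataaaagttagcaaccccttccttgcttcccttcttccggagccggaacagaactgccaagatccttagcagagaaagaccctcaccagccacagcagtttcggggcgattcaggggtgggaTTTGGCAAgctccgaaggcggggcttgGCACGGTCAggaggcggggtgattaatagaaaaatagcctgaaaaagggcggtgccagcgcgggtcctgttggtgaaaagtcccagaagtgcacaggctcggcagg

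The capitals mark the matches, on either strand, of 4 motifs that were searched, which are the core of the antioxidant response element bound by NRF2 (TGACNNNGC), a C/EBP motif (TTGCNNAA), an ETS motif as bound by PU.1 (GAGGAA) and a GATA motif (AGATAA). The motifs do not overlap in these windows. Gstm5 holds 1 antioxidant response element core, Mgst1 holds 1 such core and 1 C/EBP motif, both on the reverse strand of the window, and Gstm1 holds none of the 4. Gstm1 and Mgst1 each have a second RefSeq window that is not printed, of which that of Gstm1 holds none of the motifs and that of Mgst1, at chr6:138141337-138141636, holds 1 ETS motif. RefSeq promoters were matched for 9 of the 10 members, all but Gsta4, in 11 windows. Of these, 2 held the antioxidant response element core, 3 the C/EBP motif, 2 the ETS motif and 0 the GATA motif. Over all 32851 promoter windows of the same length the shares were 12.4%, 10.8%, 28.3% and 11.2%. A match, or its absence in a window, describes these letters only.

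Gstm1, a mu class enzyme of the liver and many other tissues, was the member that stood highest in GMPs relative to CMPs. In GMPs it stood at 328, 346, 296 and 280.4 normalized RPKM in the wild-type libraries and at 275, 309.6, 332 and 291 in the Prss57-/- libraries. In CMPs it stood at 21.01, 25.0, 31.1 and 31.2 in the wild-type and at 27.5, 22.9, 38.3 and 43.6 in the Prss57-/- libraries. Every GMP library was above every CMP library, the lowest GMP value being 275 and the highest CMP value 43.6. On the log2 scale GMPs exceeded CMPs by 3.54 (standard error, SE, 0.16), or 11.7-fold, in wild-type mice and by 3.23 (SE 0.25), or 9.38-fold, in Prss57-/- mice.

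BMMCs held an intermediate level of Gstm1. The wild-type libraries were at 52.1, 57.6, 61.3, 49.2 and 52.4 normalized RPKM, and the Prss57-/- libraries at 64.3, 67.6, 88.9, 53.7 and 84.8. All BMMC libraries were below all GMP libraries and above all CMP libraries. The log2 fold change of BMMCs over GMPs was -2.61 (SE 0.10) in wild-type and -2.17 (SE 0.16) in Prss57-/- mice (-2.25 without BMMC library 3), given without a test because the GMP level of Gstm1 chose the family. In the order of the 6 group means, the genotypes of each cell type were neighbours that overlapped, and no library overlapped between cell types.

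Gstm1 reads can be hard to place. Of the 1520 distinct 50-base words in its transcripts, the read length of the study, 287 (18.9%) occur in the transcripts of another gene, most often in Gstm2-ps1, a processed pseudogene at chr5:116632908-116633564. The authors counted only reads that aligned uniquely. Gstm2-ps1 was counted at 6.61 to 13.3 reads per 100 reads of Gstm1 across all libraries, at 60.5 to 84.5 normalized RPKM in GMPs, 3.14 to 10.8 in CMPs and 9.94 to 22.2 in BMMCs. It therefore had the same order of cell types as Gstm1, and whether its reads came from Gstm1 was not tested.

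Gstm5, another mu class enzyme, ran the other way between the progenitors. In CMPs it was at 151, 119, 85.5 and 109.8 normalized RPKM in the wild-type and at 77.5, 248, 91.5 and 113 in the Prss57-/- libraries. In GMPs it was at 30.6, 21.2, 20.3 and 18.1 in the wild-type and at 18.5, 21.7, 18.3 and 20.2 in the Prss57-/- libraries. All CMP libraries were above all GMP libraries, and Prss57-/- CMP library 2 was far above the other CMP libraries. GMPs over CMPs gave a log2 fold change of -2.35 (SE 0.20) in wild-type and -2.69 (SE 0.34) in Prss57-/- mice, and -2.23 (SE 0.15) in Prss57-/- mice without CMP library 2. The annotated exons of Gstm5 overlap by 178 bases an antisense gene, 4933431E20Rik, which was at 1.38 to 2.62 normalized RPKM in CMPs and at no more than 0.212 in GMPs. The library kit kept the strand, but whether the counting used it was not stated, so reads in the overlap cannot be told apart.

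Gstm5 was almost lost from BMMCs. Its wild-type libraries were at 1.24, 1.21, 0.927, 1.99 and 1.36 normalized RPKM and its Prss57-/- libraries at 0.869, 1.42, 6.16, 1.22 and 1.46. Each BMMC library was below each GMP library, and Prss57-/- library 3 was the highest of the 10. The log2 fold change of BMMCs over GMPs was -4.16 in wild-type mice (SE 0.23, adjusted p = 6.74e-09, edgeR) and -3.26 in Prss57-/- mice (SE 0.53, adjusted p = 0.000355, edgeR). Without Prss57-/- BMMC library 3 the second was -4.07 (SE 0.17), or 16.8-fold in place of 9.60-fold.

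Gstm2, also of the mu class, was low in the progenitors and the one member called higher in BMMCs than in GMPs. It was at 1.06 to 2.30 normalized RPKM in wild-type GMPs, 0.631 to 1.27 in Prss57-/- GMPs and 0.745 to 1.71 in CMPs. In BMMCs it was at 3.71, 4.52, 5.56, 4.42 and 4.09 in the wild-type libraries and at 5.28, 5.87, 0.245, 3.95 and 6.42 in the Prss57-/- libraries. All BMMC libraries but Prss57-/- library 3, with 5 reads, were above all GMP libraries. It rose in BMMCs over GMPs in wild-type mice, with a log2 fold change of 1.46 (SE 0.24, adjusted p = 0.000121, edgeR). In Prss57-/- mice the log2 fold change was 1.90 (SE 0.67) and did not pass the threshold (adjusted p = 0.0267, edgeR). Without BMMC library 3 it was 2.20 and passed (SE 0.26, adjusted p = 1.10e-05, edgeR, 1.10e-05 to 0.150 across the alternatives).

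Gstp1 (ENSMUSG00000060803, chr19:4035407-4037985), the pi class enzyme, varied less between the cell types. It stood at 47.9 to 73.1 normalized RPKM in wild-type GMPs, 41.7 to 57.1 in Prss57-/- GMPs, 56.5 to 94.2 in wild-type CMPs and 60.3 to 124 in Prss57-/- CMPs. Its wild-type BMMC libraries were at 25.0, 26.1, 24.6, 23.3 and 24.3, and its Prss57-/- libraries at 29.6, 20.3, 53.0, 21.7 and 25.3. For GMPs over CMPs the log2 fold change came to -0.45 (SE 0.18) in wild-type and -0.67 (SE 0.22) in Prss57-/- mice. BMMCs fell below GMPs in wild-type mice, by 1.30 on the log2 scale (SE 0.13, adjusted p = 1.09e-06, edgeR). In Prss57-/- mice the log2 fold change of -0.84 (SE 0.27, adjusted p = 0.0177, edgeR) did not pass, while without BMMC library 3, the highest of the 10, it was -1.14 and passed (SE 0.14, adjusted p = 2.13e-05, edgeR, 2.13e-05 to 0.0522 across the alternatives).

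The level of Gstp1 is uncertain because it has near copies. Of its 1737 distinct 50-base words, 586 (33.7%) are shared with other transcripts, all of them with Gstp2 and 352 also with the pseudogene Gstp-ps. Gstp2 was at 0 to 8 reads in every library. Gstp-ps was counted at 61.8 to 112 reads per 100 reads of Gstp1, so the level of Gstp1 may be higher than listed if those reads belong to it, which was not tested.

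Gsto1 (ENSMUSG00000025068, chr19:47854970-47864790), an omega class enzyme with thioltransferase and dehydroascorbate reductase activity, had the highest mean level of the members in every group. Its wild-type libraries were at 439, 314, 314 and 315 normalized RPKM in GMPs and at 363, 367, 270.1 and 377 in CMPs. The Prss57-/- libraries were at 283, 334, 315 and 381 in GMPs and at 256, 512, 331 and 368 in CMPs. GMPs and CMPs overlapped in both genotypes, with log2 fold changes of 0.03 (SE 0.15) and -0.11 (SE 0.21). In BMMCs it stood at 133, 112, 140.1, 137 and 165 in the wild-type and at 108, 129.7, 40.6, 171 and 159 in the Prss57-/- libraries. No BMMC library reached a GMP library. The fall in BMMCs was 1.42 on the log2 scale in wild-type mice (SE 0.14, adjusted p = 9.95e-07, edgeR), and in Prss57-/- mice the log2 fold change was -1.53 (SE 0.34, adjusted p = 0.00248, edgeR), or -1.30 (SE 0.15) without BMMC library 3.

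Gstt1 (ENSMUSG00000001663, chr10:75783813-75798584), a theta class enzyme that acts on small halogenated compounds, was found mainly in CMPs. It was at 3.94, 3.06, 2.42 and 4.04 normalized RPKM in the wild-type and at 2.45, 6.01, 2.71 and 2.26 in the Prss57-/- CMP libraries. It was at 0.123 to 0.383 in GMPs, on 11 to 28 reads, and at 0 to 0.459 in BMMCs, on 0 to 19 reads. All CMP libraries were above all others. Relative to CMPs, GMPs had a log2 fold change of -3.72 (SE 0.32) in wild-type and -3.64 (SE 0.48) in Prss57-/- mice. Without Prss57-/- CMP library 2 the second was -3.24 (SE 0.41). In size these gaps differed from those of Gstm1, in the opposite direction, by less than the SE of Gstt1. Between BMMCs and GMPs Gstt1 did not pass the test in either genotype, with log2 fold changes of 0.24 (95% normal interval -0.43 to 0.91) and -0.33 (-1.84 to 1.17). The 2-fold range lay outside the first interval and inside the second, where Prss57-/- BMMC libraries 1 and 3 held 1 and 0 reads, and without library 3 the second log2 fold change was -0.03 (SE 0.61).

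Gsta4 (ENSMUSG00000032348, chr9:78182774-78209349), an alpha class enzyme that clears aldehydes from lipid peroxidation, was low throughout. It was at 3.88 to 6.79 normalized RPKM in wild-type CMPs, 2.95 to 7.00 in Prss57-/- CMPs and 1.72 to 2.85 in GMPs. All CMP libraries were above all GMP libraries. In BMMCs it was at 0 to 0.412, on 0 to 8 reads per library, below every GMP library. Gsta4 did not pass the count filter within BMMCs and entered the comparison of BMMCs with GMPs only through its GMP level, so the log2 fold changes of -3.77 (SE 0.47) in wild-type and -3.96 (SE 0.50) in Prss57-/- mice are given as values with no test.

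Mgst2 (ENSMUSG00000074604, chr3:51660360-51682677), a membrane enzyme that can also make leukotriene C4, resembled Gstm1 in being high in GMPs. It was at 160.5, 76.8, 87.6 and 89.9 normalized RPKM in the wild-type and at 57.7, 80.2, 93.0 and 172 in the Prss57-/- GMP libraries. In CMPs it was at 12.8, 15.0, 12.5 and 26.04 in the wild-type and at 7.26, 42.5, 23.6 and 37.3 in the Prss57-/- libraries. GMPs were above CMPs in all libraries, with log2 fold changes of 2.66 (SE 0.30) and 1.92 (SE 0.52). In BMMCs it was at 5.93 to 13.2 in wild-type and 8.13 to 19.4 in Prss57-/- libraries, below every GMP library. The fall from GMPs to BMMCs was 3.48 on the log2 scale in wild-type mice (SE 0.27, adjusted p = 1.50e-07, edgeR), and in Prss57-/- mice the log2 fold change was -3.15 (SE 0.35, adjusted p = 2.58e-05, edgeR), or -3.37 (SE 0.31) without BMMC library 3.

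Mgst1 (ENSMUSG00000008540, chr6:138140316-138156755), a microsomal enzyme that also reduces lipid hydroperoxides, kept most of its level in BMMCs. Its GMP libraries were at 90.2, 47.1, 60.8 and 57.0 normalized RPKM in wild-type and at 41.6, 54.6, 64.5 and 101 in Prss57-/- mice. Its CMP libraries were at 17.4, 22.6, 15.5 and 33.5 in wild-type and at 11.5, 53.4, 33.2 and 37.9 in Prss57-/- mice. The wild-type GMP libraries were above the wild-type CMP libraries, while in Prss57-/- mice CMP library 2 overlapped with GMPs. GMPs over CMPs gave log2 fold changes of 1.54 (SE 0.26) and 1.00 (SE 0.43). The BMMC libraries were at 37.0, 34.4, 48.9, 48.1 and 46.4 in wild-type and at 42.6, 47.1, 4.46, 45.8 and 69.4 in Prss57-/- mice. Against GMPs, neither genotype passed the 2-fold limit, with log2 fold changes of -0.67 in wild-type (SE 0.18, adjusted p = 0.00435, edgeR) and -0.74 in Prss57-/- mice (SE 0.57, adjusted p = 0.264, edgeR), or -0.44 without BMMC library 3.

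Mgst3 (ENSMUSG00000026688, chr1:167371966-167393841), the third microsomal member, was lowest in BMMCs. It was at 15.5 to 25.1 normalized RPKM in wild-type and 12.5 to 24.1 in Prss57-/- GMPs, and at 21.4 to 35.2 in wild-type CMPs. The Prss57-/- CMP libraries were at 17.9, 88.1, 28.9 and 38.8, library 2 being far above the rest. Between GMPs and CMPs the log2 fold change stood at -0.68 (SE 0.19) in wild-type and -1.22 (SE 0.43) in Prss57-/- mice, or -0.65 (SE 0.28) without CMP library 2. In BMMCs it was at 5.01 to 10.9, below every GMP library, with log2 fold changes of -1.64 in wild-type (SE 0.18, adjusted p = 3.63e-06, edgeR) and -1.34 in Prss57-/- mice (SE 0.28, adjusted p = 0.00144, edgeR), or -1.23 (SE 0.25) without BMMC library 3.

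**Figure D2:**
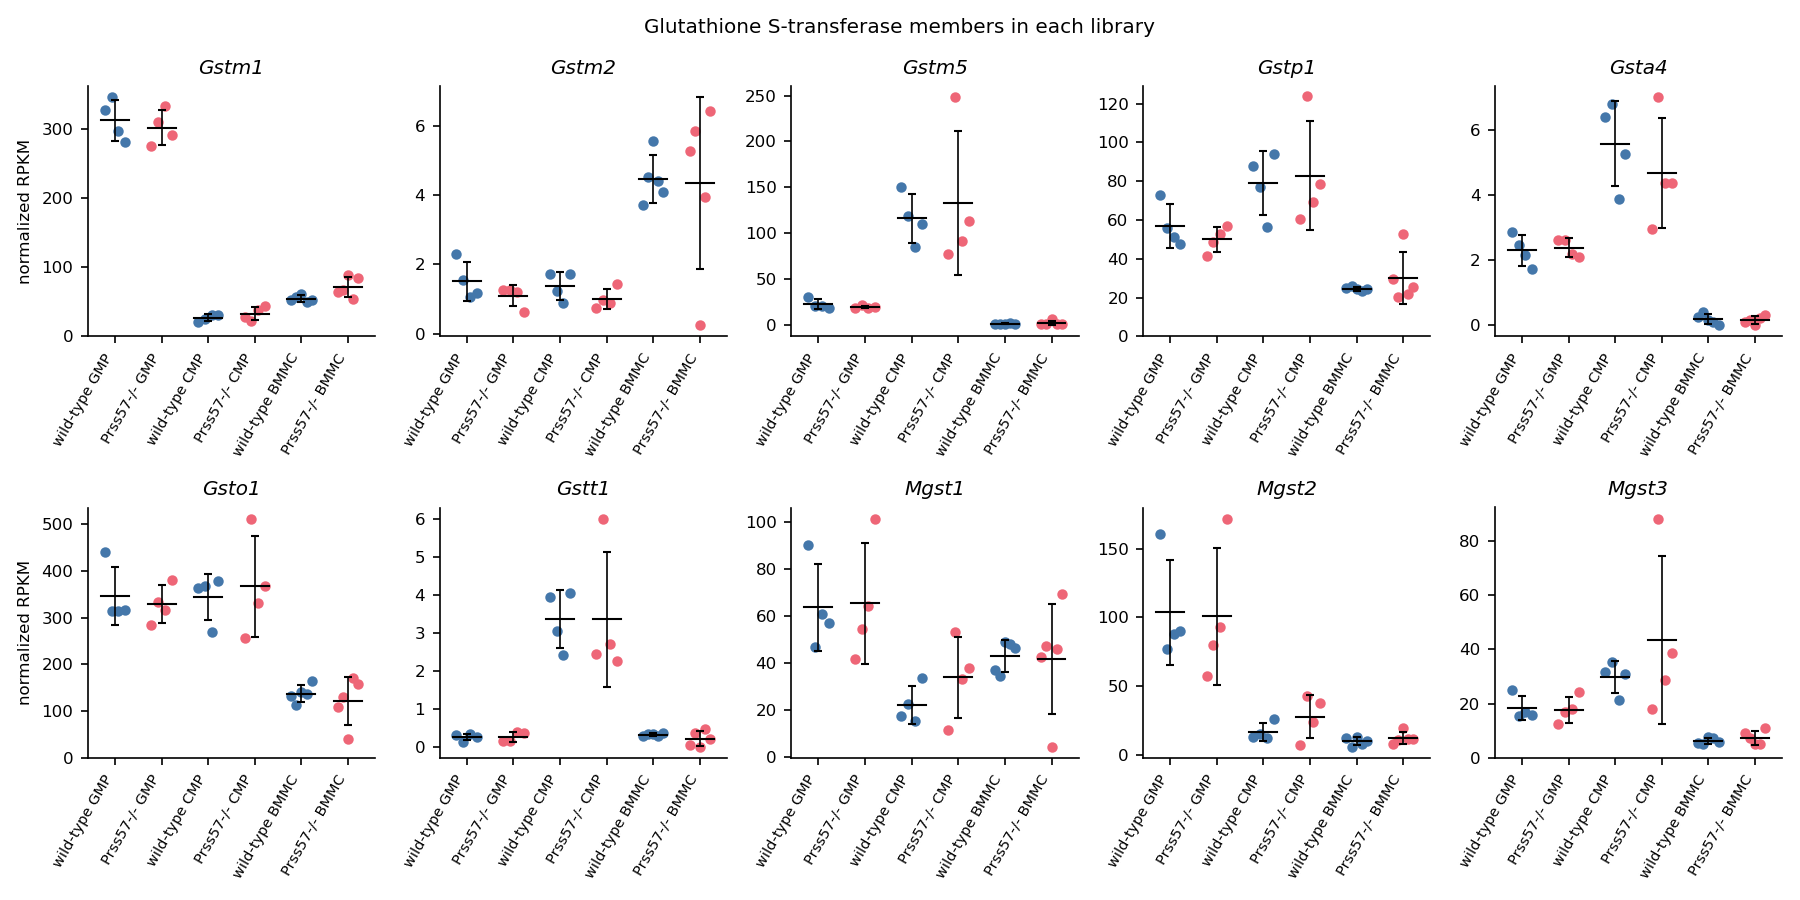
Normalized RPKM of each member (vertical axes, linear and different in each panel) in the 26 libraries by group, with blue points for wild-type, red points for Prss57-/- libraries, bars for the mean and whiskers for the SD. Gstm1 and Mgst2 were high in GMPs, Gstm5 and Gstt1 in CMPs, and Gstm2 in BMMCs except 1 library at 0.245.

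Between GMPs and CMPs the members thus differed in both directions. In wild-type mice 3 members were at least 2-fold higher in GMPs without any overlap of libraries (Gstm1, Mgst1 and Mgst2) and 3 were at least 2-fold lower (Gstm5, Gsta4 and Gstt1), where 6.94% of all 14967 genes tested were higher and 8.06% lower by the same measure. In Prss57-/- mice 2 members were higher (Gstm1 and Mgst2) and 2 lower (Gstm5 and Gstt1), with 6.69% and 7.91% of all genes. As the family was chosen on this comparison, nothing is read from these counts. The median log2 fold change of the 10 members was -0.21 in wild-type and -0.39 in Prss57-/- mice, and that of all genes tested was -0.02 and -0.03.

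**Figure D3:**
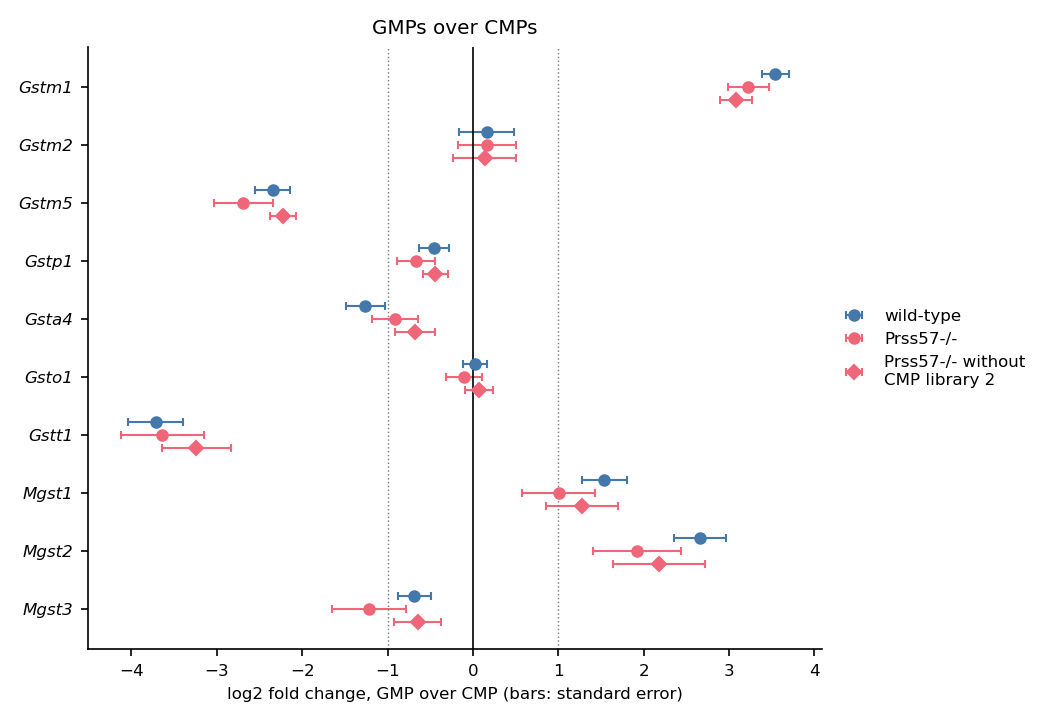
Log2 fold change of GMPs over CMPs for each member (horizontal axis, edgeR estimates, bars for the standard error) in wild-type mice, in Prss57-/- mice and in Prss57-/- mice without CMP library 2, with dotted lines at 2-fold. Gstm1 was the highest at 3.54 in wild-type mice and Gstt1 the lowest at -3.72.

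Libraries that stood apart moved several members at once. Prss57-/- CMP library 2 was the highest CMP library for Gstm5, Gstp1, Gsta4, Gsto1, Gstt1, Mgst1, Mgst2 and Mgst3. It had the highest sum of 10 megakaryocyte and erythroid markers, 3877 against 1761 to 2751 normalized RPKM in the other CMP libraries, and its log2 level fell by 0.40 with each doubling of gene length. Among GMPs, wild-type library 1 and Prss57-/- library 4 had the highest Mgst1, Mgst2 and Mgst3 of their genotype. They also had the highest sums of 10 late neutrophil markers, 3377 and 5288 against 859 to 2469 normalized RPKM in the other GMP libraries. Their sums of 8 eosinophil and basophil markers, 4205 and 6485, were the highest of their genotype too. The other wild-type GMP libraries were at 3481 to 4083 there and the other Prss57-/- ones at 3489 to 3848. The slopes on gene length of these 2 libraries were -0.22 and -0.15. Slopes of the other sign were 0.32 in Prss57-/- CMP library 1, 0.24 in wild-type CMP library 3 and 0.17 in Prss57-/- GMP library 1. Prss57-/- CMP library 1 was the lowest of its group for Gstm2, Gstm5, Gstp1, Gsta4, Gsto1, Mgst1, Mgst2 and Mgst3. The part of these features in the members' levels was not tested. Without wild-type GMP library 1 the wild-type log2 fold change of Mgst2 over CMPs was 2.39, and without Prss57-/- GMP library 4 the Prss57-/- one was 1.55.

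BMMCs were compared with GMPs, the cell type from which such cultures are started, although the sequenced GMPs came from other mice. Counts are given over the 8 members that passed the count filter within GMPs and within BMMCs, with Gstm1 and Gsta4 left out. A call required an adjusted p under 0.01 and a change of at least 2-fold. In wild-type mice 5 of the 8 fell (Gstm5, Mgst2, Mgst3, Gsto1 and Gstp1) and 1 rose (Gstm2), where 24.4% of all 14754 genes tested fell and 27.3% rose. In Prss57-/- mice 4 fell (Gstm5, Mgst2, Gsto1 and Mgst3) and 0 rose, against 22.3% and 25.6% of all genes. Without Prss57-/- BMMC library 3, Gstp1 and Gstm2 were also called there, giving 5 that fell and 1 that rose, against 24.1% and 27.0% of all genes. Among the genes that passed the filter within both cell types, 22.7% fell and 24.0% rose in wild-type mice. The median log2 fold change of the 8 was -1.36 in wild-type and -1.09 in Prss57-/- mice, or -1.18 without library 3, and that of all such genes -0.03, 0.01 and -0.02. The GMP libraries are the same as in the comparison with CMPs, so the 2 comparisons are not independent.

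**Figure D4:**
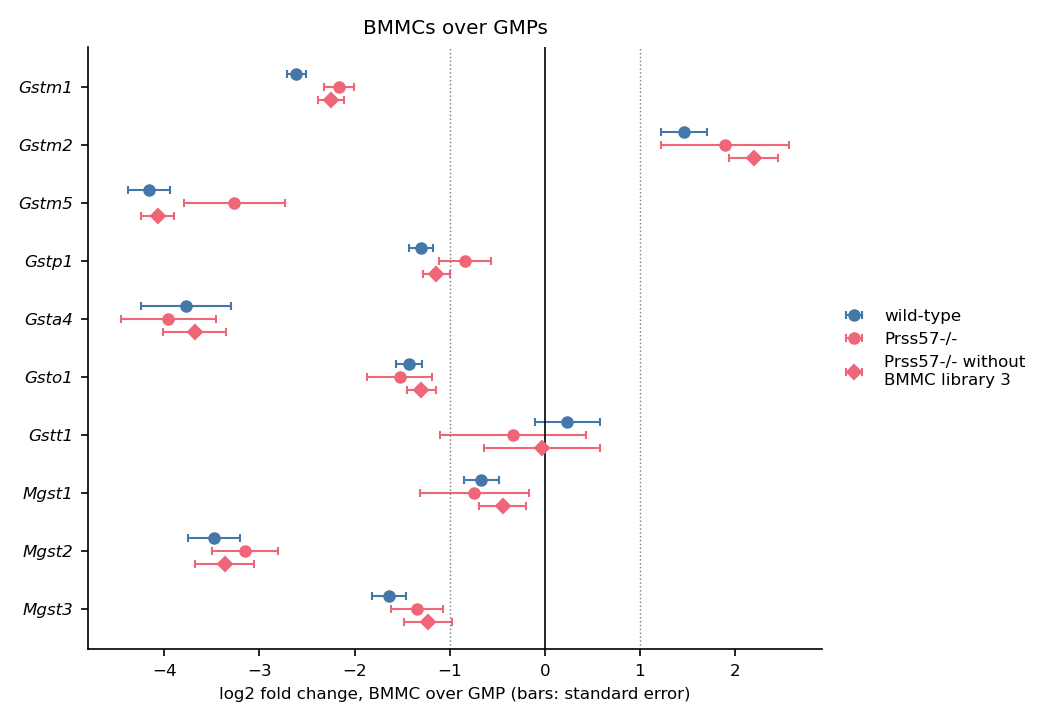
Log2 fold change of BMMCs over GMPs for each member (horizontal axis, edgeR estimates, bars for the standard error) in wild-type mice, in Prss57-/- mice and in Prss57-/- mice without BMMC library 3, with dotted lines at 2-fold. Gstm2 lay above 1 in each and Gstm5, Gsta4 and Mgst2 below -3.

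Prss57-/- BMMC library 3 differed from the other BMMC libraries across the members. It was the lowest of the 10 for Gstm2, Gsto1 and Mgst1 and the highest for Gstm1, Gstm5, Gstp1 and Mgst2. As given above, the same library had a macrophage and dendritic cell marker sum of 246 normalized RPKM and the highest mast cell marker sum, 76796 against 25530 to 47310 in the others. The part of this in the members' levels was not tested.

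The study compared Prss57-/- with wild-type mice to ask what the loss of NSP4 changes in these cells. No member was called different between the genotypes in GMPs (0 of 10), in CMPs (0 of 10) or in BMMCs (0 of 9, Gsta4 having too few reads), and the smallest adjusted p of any member in these comparisons was 0.9999 (edgeR). Of all genes tested, 0.00681% were called in GMPs, 0.0067% in CMPs and 0% in BMMCs. At an unadjusted p under 0.05 from edgeR, 119 of 14689 genes stood out in GMPs, 76 of 14916 in CMPs and 332 of 13938 in BMMCs, with 0, 0 and 1 members among them, the last being Gstm1. By limma voom and DESeq2 likewise no member was called and Gstm1 in BMMCs was the only member under 0.05 unadjusted. The genotype effect in GMPs minus that in CMPs, tested as an interaction, was called for 0 of 10 members and 0% of all genes (169 of 15900 genes at an unadjusted p under 0.05 in edgeR, 0 called by limma voom or DESeq2).

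Gstm1 in BMMCs was the closest to a genotype difference. The mean was 71.8 ± 14.7 normalized RPKM (SD, n = 5) in Prss57-/- and 54.5 ± 4.84 (SD, n = 5) in wild-type BMMCs, and 4 of the 5 Prss57-/- libraries were above all 5 wild-type libraries. The exact two-sided permutation test gave p = 0.0317, where 3.79% of all genes tested were under 0.05, and no other of the 30 member tests in the 3 cell types was (0.994% of genes in GMPs and 0.818% in CMPs were). By edgeR the log2 fold change came to 0.39 (SE 0.13), with an adjusted p = 0.9999 (unadjusted 0.0144), so the difference failed the correction. Without Prss57-/- library 3 the log2 fold change was 0.30 (SE 0.12). Leaving out wild-type library 1, 4 or 5 raised the exact permutation p to 0.0794 each time. Leaving out any other library gave 0.00794 (Prss57-/- library 4) to 0.0476 (Prss57-/- library 3 or 5) by the same test. In GMPs the Prss57-/- mean of 302 ± 24.9 (SD, n = 4) was within the spread of the wild-type mean of 312 ± 29.6 (SD, n = 4), with p = 0.571 by the exact permutation test, whose smallest p is 0.0286 for 4 against 4.

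The 95% normal intervals of the genotype effect show what could be seen. For Gstm1 in GMPs the interval of the log2 fold change was -0.25 to 0.15 and for Gsto1 in GMPs -0.35 to 0.20, so a 2-fold change lay outside both. For Mgst2 in CMPs, at a log2 fold change of 0.71, the interval was -0.22 to 1.63, and for Gstm5 in BMMCs -0.33 to 1.74, so a 2-fold change lay inside both. Without Prss57-/- CMP library 2 the log2 fold change of Mgst2 in CMPs was 0.44, and without Prss57-/- BMMC library 3 that of Gstm5 in BMMCs was -0.11.

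**Figure D5:**
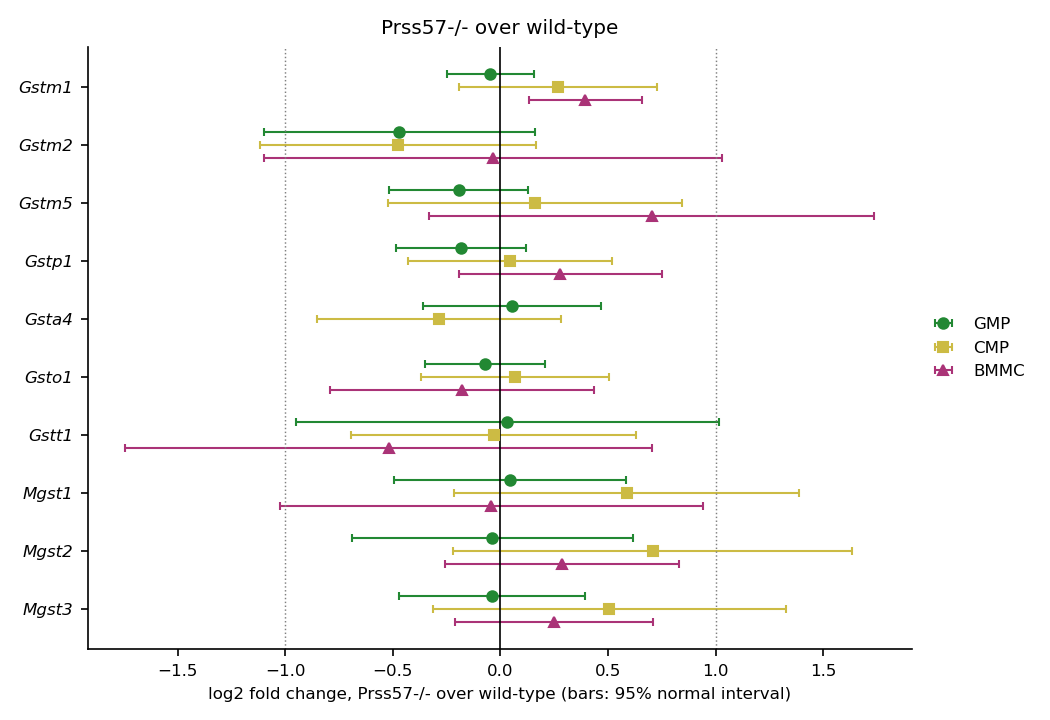
Log2 fold change of Prss57-/- over wild-type for each member in GMPs, CMPs and BMMCs (horizontal axis, edgeR estimates, bars for the 95% normal interval), with dotted lines at 2-fold. All intervals but that of Gstm1 in BMMCs, from 0.13 to 0.66 before correction, held 0, and Gsta4 had too few reads to be fitted in BMMCs.

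Besides the 10 members, 20 genes of the family and its membrane relatives were looked at. Of the 11 that passed the count filter within GMPs and within BMMCs, 3 rose and 5 fell in wild-type BMMCs over GMPs, against 24.0% and 22.7% of all such genes, with a median log2 fold change of -0.84. Hpgds and Gsta3 passed the filter only through BMMCs and are given as values with no test. Hpgds, the sigma class enzyme that makes prostaglandin D, was at 0.0170 to 0.0808 normalized RPKM in wild-type GMPs and at 18.5 to 38.3 in wild-type BMMCs, with a log2 fold change of 8.87 (SE 0.33). Ltc4s, leukotriene C4 synthase, rose from 1.28 to 30.7 (log2 fold change 4.502, SE 0.29, adjusted p = 2.91e-08, edgeR). Gsta3, of the alpha class, had a log2 fold change of 4.505 (SE 0.32), and Gstm7, of the mu cluster, fell by 3.10 on the log2 scale (SE 0.27). In Prss57-/- mice 1 of the 11 rose and 3 fell, against 22.5% and 20.95% of all such genes, or 2 and 5 without BMMC library 3, against 24.2% and 22.3%. Within the mu cluster, Gstm4 at chr3:108040408-108044894, which is 22434 bases from Gstm1, was at 24.5 to 35.6 normalized RPKM in GMPs and at 9.66 to 13.4 in CMPs, with a log2 fold change of 1.49 (SE 0.13) in wild-type mice.

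The other parts of the glutathione pathway were read from 4 lists, counted in the same way and to be read against 24.0% of all such genes that rose and 22.7% that fell in wild-type mice. Of 10 tested genes of glutathione synthesis and supply, 5 rose and 1 fell in wild-type BMMCs over GMPs, with a median log2 fold change of 0.78. Among them Slc7a11, the cystine transporter, rose by 6.01 (SE 0.24), its partner Slc3a2 by 2.95 (SE 0.12), Cth, which makes cysteine, by 4.90 (SE 0.32) and Chac1, which breaks glutathione down, by 5.90 (SE 0.24), all on the log2 scale. The synthesis enzymes Gclc, Gclm and Gss had means of 13.8, 12.9 and 15.9 normalized RPKM in wild-type GMPs. In wild-type BMMCs they were at 18.9, 19.3 and 13.0, each a change under 2-fold. Of 16 genes of glutathione reduction and peroxidases, 1 rose and 6 fell, with a median of -0.53. Gpx1, a glutathione peroxidase, fell by 2.11 (SE 0.15), Gsr, the glutathione reductase, by 1.99 (SE 0.11) and the glutaredoxins Glrx and Glrx5 by 1.78 (SE 0.15) and 1.64 (SE 0.11). Of 9 genes of conjugate export and of mercapturate formation, 6 rose and 1 fell, led by the peptidases Anpep at 9.80 (SE 0.22) and Dpep2 at 7.44 (SE 0.22) and the exporter Abcc3 at 6.88 (SE 0.36), while the exporter Abcc2, which passed the filter only through GMPs, had a log2 fold change of -4.89 (SE 0.51), with no test. Of 12 genes of the NRF2 pathway, which drives many glutathione genes, 9 rose and 1 fell, among them Hmox1 at 5.88 (SE 0.14), Srxn1 at 4.07 (SE 0.12), Maff at 3.94 (SE 0.23) and Nqo1 at 3.40 (SE 0.26). Regulators and targets are counted together there, so the count does not measure the activity of the pathway. Of the regulators, Bach1 had a mean of 7.53 normalized RPKM in wild-type GMPs and 22.2 in wild-type BMMCs, and Keap1 21.6 and 13.6. Prss57-/- BMMC library 3 was the lowest BMMC library for Slc7a11, Chac1, Dpep2, Hmox1 and Maff, and results in Prss57-/- mice are given with and without it. With it, 5 rose and 1 fell in synthesis and supply, 1 and 6 in reduction, 6 and 1 in export and 9 and 1 in NRF2, against 22.5% and 20.95% of all such genes. Without it, 5 rose and 0 fell in synthesis and supply, 1 and 5 in reduction, 6 and 1 in export and 9 and 0 in NRF2, against 24.2% and 22.3%. Macrophage and dendritic cell markers, at 2314 to 3280 normalized RPKM in wild-type BMMCs and 119 to 135 in wild-type GMPs, moved with these lists, and their part was not tested.

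The same lists between GMPs and CMPs, as values without a test, showed genes on both sides of Gstm1. Gsr and Gpx3, a secreted glutathione peroxidase, were higher in wild-type GMPs, with log2 fold changes of 2.49 (SE 0.12) and 3.28 (SE 0.23), as was Pgd, which feeds NADPH, at 1.57 (SE 0.13). Gpx8 was lower at -3.66 (SE 0.64). In synthesis and supply, Chac1 was at 3.99 (SE 0.70) and Slc7a11 at 2.51 (SE 0.65), both at no more than 0.916 normalized RPKM in the wild-type progenitor libraries, and Cth was at -1.95 (SE 0.42) and Chac2 at -1.49 (SE 0.24). Abcc2 was at 2.73 (SE 0.36), Abcc4 at 1.34 (SE 0.15), Abcc3 at -1.42 (SE 0.55) and Ggt5 at -1.56 (SE 0.25). Of the NRF2 list, Nqo1 was at -3.37 (SE 0.28), Hmox1 at -1.61 (SE 0.26), Prdx1 at -0.90 (SE 0.19) and Mafg at 0.77 (SE 0.15). In the family, Gstp3 was at -2.72 (SE 0.37), Ltc4s at -2.15 (SE 0.33) and Ptges, at no more than 0.294 normalized RPKM in all progenitors, at 1.69 (SE 0.80). No gene of these lists was called in any genotype comparison or in the interaction.

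The genes whose pattern over the 26 libraries was closest to that of Gstm1 were ranked by the root mean square difference of centred log2(normalized RPKM + 0.1), over 12182 genes with a mean of at least 1 normalized RPKM. Gstm2-ps1 came first at 0.195, and it shares words of sequence with Gstm1 as given above. Rflnb, at 0.329, was at 9.60 to 12.8 normalized RPKM in GMPs, 0.679 to 1.89 in CMPs and 1.46 to 2.82 in BMMCs. Gpc1, a heparan sulfate proteoglycan of the cell surface, followed at 0.511, Gsr at 0.536 and Trim45 at 0.538. Gsr was at 135 to 158 normalized RPKM in GMPs, 21.2 to 35.0 in CMPs and 21.9 to 46.1 in BMMCs. All 5 had their lowest GMP library above their highest CMP and BMMC libraries. They were picked for likeness to Gstm1 over these same libraries, so nothing is read from this.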

How the data were processed

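The authors prepared stranded total RNA libraries, sequenced single-end 50-base reads, aligned them to GRCm38 with GSNAP (named in the submitters' processing notes) through HTSeqGenie and counted uniquely aligned reads in exons. The authors deposited 1 table per library with counts per gene, not normalized, and RPKM divided by a size factor. Their annotation release was not given in the sources used here; 52489 of 52636 identifiers matched GENCODE M21. Alignment and counting were not repeated. Counts were compared in R 4.3.3 with edgeR 4.0.16 (TMM, filterByExpr, robust quasi-likelihood test, Benjamini-Hochberg adjustment over all genes tested), and called at an adjusted p under 0.01 and at least 2-fold, or at the adjusted p alone for the interaction. Only the groups compared entered each fit. Normalized RPKM was compared by permuting the genotype labels in full (exact, two-sided), where p can go no lower than 0.0286 for 4 against 4 and 0.00794 for 5 against 5. The edgeR standard errors were derived from the log2 fold change and the F statistic of the test. The 95% intervals are the estimate plus or minus the normal quantile times its standard error. With 4 or 5 libraries per group they are narrower than the edgeR test itself would give. Alternatives were limma 3.58.1 (voom), DESeq2 1.42.0, RLE factors, no count filter, an adjusted p under 0.05 with no fold limit, replicate number as a block and each library left out. The edgeR design was tested on simulated data. Tables were made in Python 3.11.15 with pandas 2.3.3 and numpy 2.4.6, and figures with matplotlib 3.10.9. The slope on gene length is the change of a library's log2 level, against its cell type's mean, per doubling of the length constant, over genes averaging 100 or more counts. Shared 50-base words were counted on both strands of the GENCODE M21 transcripts.

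Members and gene lists were chosen with earlier results of these data known. All members are named. From each list, the 4 genes with the largest wild-type log2 fold change of BMMCs over GMPs and of GMPs over CMPs are named, and the 5 genes closest to Gstm1. Gclc, Gclm, Gss, Nfe2l2, Mafk, Bach1 and Keap1 are named besides. Of the named markers, Mpo, Elane, Cpa3 and Tpsb2 serve as examples of their lists, and Cd34, Kit and Hdc are named because they went another way.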

Additional observations from a re-analysis of the deposited data

Results flagged for a closer look

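Of 60 groups of a member's values, each the 4 or 5 libraries of 1 genotype and cell type, 8 held a library whose gap to its nearest neighbour exceeded Dixon's 95% critical value; chance flags about 1 in 20 such groups. In wild-type GMP library 1, Gsto1 was at 439, Mgst2 at 160.5 and Mgst3 at 25.1 normalized RPKM, each the highest of 4. In Prss57-/- BMMC library 3, Gstm5 was at 6.16 and Gstp1 at 53.0, each the highest of 5. Gstt1 was at 6.01 in Prss57-/- CMP library 2, the highest of 4. Gsto1 was at 270.1 in wild-type CMP library 3 and Gstm2 at 0.631 in Prss57-/- GMP library 4, each the lowest of 4. The marker sums of these libraries or their slopes on gene length are described above, for wild-type CMP library 3 the slope only. No member's genotype effect was found to differ between GMPs and CMPs by the interaction test.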

How the results depend on the processing

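Among the alternatives for single members, 1031 values were counted as unchanged, 63 as changed in sign, all of them values that passed no test, and 3 passed where the main value did not. The values of GMPs over CMPs, which had no test, were all counted as unchanged, whatever their sign. Of these, leaving out a library moved Gstm2 in wild-type mice between -0.090 and 0.31. It moved Gsto1 between -0.094 and 0.085 in wild-type and between -0.24 and 0.073 in Prss57-/- mice. The 3 were Gstm2 and Gstp1 in Prss57-/- BMMCs over GMPs without BMMC library 3, given above, and Gstm2 there with DESeq2 (log2 fold change 1.96, adjusted p = 0.0036). Over all genes, Prss57-/- against wild-type GMPs gave 2 calls with DESeq2 and 2 at an adjusted p under 0.05 with no fold limit (1 in the main test, 1 to 2 with a library left out), and CMPs gave 3 with DESeq2 (main 1). BMMCs against GMPs gave 12030 calls in wild-type and 11032 in Prss57-/- mice at an adjusted p under 0.05 with no fold limit, against 7630 and 7150. With a library left out, 0 to 1 members passed the permutation test. Signs changed for Gstt1 in GMPs between genotypes (main 0.03, voom -0.052, replicate block -0.017), Mgst1 in GMPs (0.04, voom -0.0021) and the interaction of Gstm2 (0.0091, DESeq2 -0.0020, RLE -0.0058). Leaving out a library moved the genotype log2 fold change in GMPs between -0.051 and 0.18 for Gsta4, -0.091 and 0.010 for Gstm1, -0.15 and 0.068 for Gsto1, -0.22 and 0.25 for Gstt1, -0.25 and 0.26 for Mgst1, -0.42 and 0.26 for Mgst2, and -0.22 and 0.15 for Mgst3. In CMPs it lay between -0.32 and 0.31 for Gstm5, -0.13 and 0.18 for Gsto1, -0.20 and 0.14 for Gstp1, -0.45 and 0.12 for Gstt1, and -0.085 and 0.73 for Mgst3. In BMMCs it lay between -0.21 and 0.26 for Gstm2, -0.11 and 0.92 for Gstm5, -0.34 and 0.043 for Gsto1, -0.031 and 0.40 for Gstp1, and -0.30 and 0.25 for Mgst1. The interaction lay between -0.12 and 0.26 for Gstm2, -0.51 and 0.12 for Gstm5, -0.26 and 0.043 for Gsto1, -0.33 and 0.0072 for Gstp1, -0.23 and 0.46 for Gstt1, and -0.78 and 0.033 for Mgst3. Gstt1 in wild-type BMMCs over GMPs lay between -0.0057 and 0.37. The causes were not tested. Same-numbered libraries correlated between -0.58 and 0.76 in their deviations, so the numbers were not taken as pairs; the mean was above that of other numbers in 3 of 5 group pairs (0.30 against -0.10, 0.28 against -0.12 and 0.19 against -0.10), so a tie is not shown to be absent. The replicate block changed no member's call. No paired analysis was possible for BMMCs against GMPs because the mice differed in sex. Counting only genes that passed the filter within both cell types was chosen after seeing the data. The count over all 9 members besides Gstm1 adds Gsta4, which passed only through its GMP level and is given no test. With Gsta4 added, 6 fell and 1 rose in wild-type mice, against 24.4% and 27.3% of all genes tested. In Prss57-/- mice 5 fell and 0 rose, against 22.3% and 25.6%. Nothing is read from the added member. Depth limits Gsta4 in BMMCs (0 to 8 reads) and Gstt1 in GMPs and BMMCs (0 to 28 reads).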
